A study of Mus musculus with 7 samples.

Results

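The ABC transporter genes were examined in the livers of TET1 KO and WT mice. They were taken as all genes whose symbol joins Abc, a subfamily letter from a to g and a number, with or without a final letter, and 50 of the 51426 genes of the count tables met this rule. Of these, 37 had at least 10 counts in every library and are called the tested members below, out of 12994 genes that met the same minimum. The other 13 lay under it, and 5 of them (Abca12, Abca13, Abca15, Abcb5 and Abcc8) had no count in any liver. Another 6 (Abca4, Abca14, Abca16, Abca17, Abcc12 and Abcg4) had 0 to 16 counts per liver, and Abcb1b and Abcd2 are given by their values. Liver RNA had been sequenced from 3 WT and 4 TET1 KO male mice, labelled C57BL/6J, which were all on a high fat diet (HFD) for 16 weeks from 8 weeks of age. The KO lacked TET1 in the whole body, not in hepatocytes alone. The TET1 KO stock that the study names carries the Tet1tm1.1Jae allele in a mixed strain background by its name, whereas the labels give C57BL/6J, and the KO mice were set against littermates. TET1 oxidises 5-methylcytosine in DNA, and the comparison asks which hepatic transcripts differ where it is lacking under a diet that causes fatty liver.

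ABC proteins bind and hydrolyse ATP at a pair of conserved domains, and most of them use this to move a substrate across a membrane. In the liver they carry out the last step of bile formation, since bile salts, phosphatidylcholine, sterols and conjugated bilirubin each leave the hepatocyte across the canalicular membrane through an ABC protein of their own. Others load cholesterol onto HDL, return conjugates to the blood, pump drugs out of the cell, or carry fatty acyl-CoA into peroxisomes. The E and F subfamilies have the ATP-binding domains without a membrane part, and work at the ribosome.

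In edgeR's quasi-likelihood test, 0 tested members passed the threshold of an adjusted p under 0.05, against 1.92% of the 12994 genes with the same minimum of counts. The members with the smallest p were lower in TET1 KO: Abcc3, the exporter of conjugates into blood, Abcb4, the phosphatidylcholine flippase of the canaliculus, Abcf2, a soluble member, and Abcb1a, a drug pump. These 4 were the members called lower by DESeq2 at an adjusted p under 0.05, where 4.9% of genes were called lower and 4.9% higher, and DESeq2 called 0 members higher. Percentages in parentheses are over the same 12994 genes. At an unadjusted p under 0.05 in edgeR, 11 members were lower in TET1 KO (12.7%) and 4 were higher (14.1%). At an adjusted p under 0.1 there were 5 lower members (5.53%) and 0 higher ones (5.86%), the 5 being the 4 above and Abca5. All TET1 KO livers lay below all WT livers for 5 members (11.1%) and above them for 2 members (12.3%). The lower share at an unadjusted p was above the background and the higher share below it, without a test of either.

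The fitted difference was below 0 for 22 of the 37 members, or 59.5%, against 48.7% of the 12994 genes. The median log2 fold change of the members, TET1 KO minus WT, was -0.08 against 0.01 over all genes. With library size alone as the scaling both medians moved down, to -0.17 and -0.08, and the shares below 0 were 67.6% and 57.8%. WT replicate 2 was the highest of the 7 livers for 19 of the 37 members, and for all 11 of those lower at an unadjusted p under 0.05. Without it the median of the members was -0.02, and the number called by edgeR stayed at 0. WT replicate 2 also lay at one end of the first principal component of all genes and TET1 KO replicate 1 at the other.

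**Figure D1:**
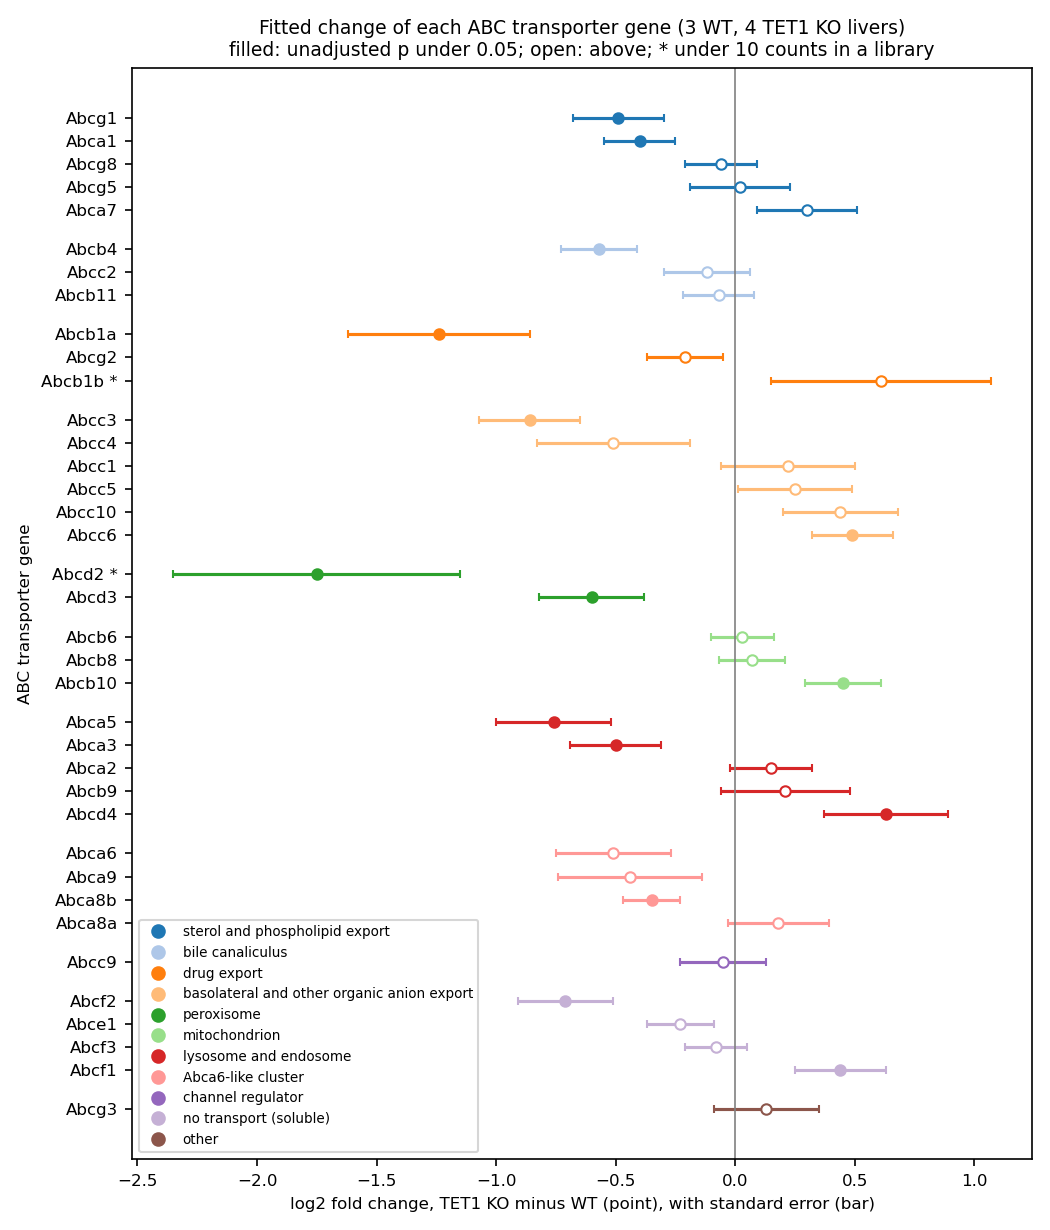
Fitted log2 fold change (x axis, TET1 KO minus WT, with its SE as a bar) of 35 tested members and of Abcd2 and Abcb1b, which had fewer than 10 counts in a library, grouped by role. Filled points have an unadjusted p under 0.05, and they number 10 below and 4 above 0 among the tested members shown.

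Library sizes lay between 15005277 and 22746138 counts, so that 1 CPM (a count scaled to library size after TMM normalization) stood for 14.2 to 24.1 counts. The tested members took 0.267 to 0.373% of the counts in WT livers and 0.229 to 0.268% in TET1 KO livers. Tet1, the targeted gene, had 1, 4 and 1 counts in WT and 2, 1, 4 and 1 counts in TET1 KO livers, so its mRNA gives no check of the genotype labels. Summed hepatocyte markers (8 genes, Alb and Cps1 among them) reached 61420 to 81528 CPM in WT and 68875 to 79512 CPM in TET1 KO livers. Most of each sum was Alb, at 42646 to 63896 CPM in WT and 48241 to 54750 CPM in TET1 KO livers. The median log2 fold change of the 8 was 0.02. Of them edgeR called 0, and DESeq2 called Apoc3 higher (DESeq2 adjusted p = 0.0241). As these are bulk samples, fewer cells of a type and less RNA per cell cannot be told apart.

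Ratios between genes, given further below, use TMM CPM without scaling by length. Other levels were compared between genes as TMM CPM per kb of exon. By its mean over the 7 livers the highest of the tested members was Abcc2, the pump for conjugated bilirubin, at 89.0 with a range of 71.4 to 108. It was followed by the peroxisomal Abcd3 (83.2, range 61.2 to 144), the bile salt pump Abcb11 (64.4, range 53.2 to 73.7), Abcb4 (48.8, range 37.3 to 76.2) and the sterol pump gene Abcg5 (46.2, range 34.7 to 59.9). The first place depended on the genotype, with overlapping ranges. In WT livers Abcd3 came before Abcc2, at 103 ± 35.4 against 93 ± 15.6 (SD, n = 3), and in TET1 KO livers it came after it, at 68.3 ± 10.9 against 85.9 ± 15.5 (SD, n = 4). The lowest were Abcc4 (0.195) and Abcc1 (0.123), both exporters of organic anions. In this order the ranges of 34 of the 36 neighbouring pairs overlapped, so that single steps of the ranking are mostly within the spread of the livers. The canalicular and peroxisomal genes thus led the list in both genotypes, and the ubiquitous drug exporter Abcc1 closed it.

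**Figure D2:**
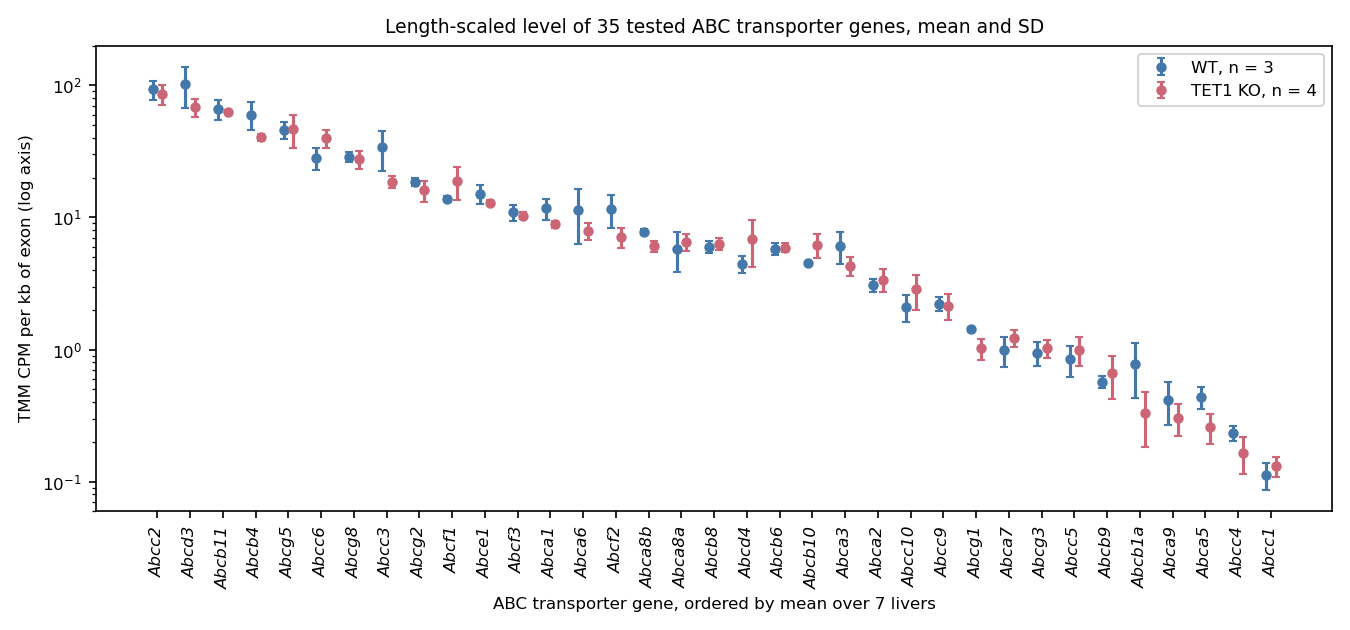
Level of 35 tested members (y axis, TMM CPM per kb of exon, log axis) ordered by its mean over 7 livers, with the mean and SD of WT (n = 3) and TET1 KO (n = 4). The order runs from Abcc2 at 89.0 to Abcc1 at 0.123, and the widest gap between the genotypes is that of Abcb1a.

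The stretches in front of 4 start sites are shown because Abcb1a and Abcb4 are 2 genes of a row on chromosome 5, with Abcb1b between them, with low values in TET1 KO whose start windows differ in CpG content, Abcf2 is a lower member with a CpG-dense start, and Abcg5 and Abcg8 share a start region. For Abcb1a, Abcb4 and Abcf2, bases inside the RefSeq span of the gene were left out. The stretch of Abcg5 and Abcg8 lies in front of 1 of 2 Abcg8 start sites in the table, the one next to Abcg5, and inside the RefSeq span of Abcg8, which begins at 84676302 with the other. The sequences are from RefSeq (GRCm38.p6), written 5′ to 3′ on the strand of the gene, and CpG dinucleotides, the sites at which DNA is methylated, are in capitals. DNA methylation was not measured in these samples.
Abcb1a, chr5:8566841-8567090, plus strand: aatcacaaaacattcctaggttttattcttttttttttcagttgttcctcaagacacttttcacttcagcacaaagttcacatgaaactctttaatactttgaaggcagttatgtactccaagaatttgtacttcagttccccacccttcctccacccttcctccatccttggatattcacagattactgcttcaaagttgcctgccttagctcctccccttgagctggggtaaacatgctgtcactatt
Abcb4, chr5:8893471-8893613, plus strand: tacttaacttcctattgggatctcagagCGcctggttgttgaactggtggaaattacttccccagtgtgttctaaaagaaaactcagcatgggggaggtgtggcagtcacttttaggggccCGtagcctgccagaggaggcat
Abcf2, chr5:24577468-24577717, minus strand: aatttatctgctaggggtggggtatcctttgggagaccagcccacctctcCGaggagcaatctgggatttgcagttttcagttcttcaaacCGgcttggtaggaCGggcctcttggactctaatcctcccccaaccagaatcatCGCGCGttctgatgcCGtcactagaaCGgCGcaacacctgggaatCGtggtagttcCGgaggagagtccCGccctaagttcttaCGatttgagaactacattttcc
Abcg5 and Abcg8, chr17:84683012-84683120, plus strand (the strand of Abcg8), from behind the start of Abcg5 to the start of Abcg8: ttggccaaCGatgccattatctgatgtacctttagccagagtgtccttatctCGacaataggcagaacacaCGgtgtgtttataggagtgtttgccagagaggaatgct

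Over windows of 300 bases, from 250 before to 50 after a start site, RefSeq entries were matched for 38 members. The window of Abcb1a held 2 CpG and had 40.3% G and C, whereas that of Abcb4 held 21 CpG and had 64% G and C. Of the 21 in the Abcb4 window, 2 lie in the stretch shown. Abcf2 and Abcg8 have 2 windows each. The Abcf2 window of the stretch shown held 20 CpG, 13 of them in the stretch, and its other window held 29. The Abcg8 window next to Abcg5 held 6 CpG, and the one at the far start site held 21. The median was 7 CpG over all 32851 windows of the table and 19.5 over 28 tested members with 1 window each, so Abcb1a and Abcb4 lay on opposite sides of both medians. The windows of Abcg5 and Abcg8 overlap by 209 bases on opposite strands. Motifs were searched on both strands, where the reverse of AGGTCA and TGACNNNGC can share letters. The antioxidant response core TGACNNNGC was in the Abcb1a window and in those of 5 members in all, and 12.4% of all windows held it. The nuclear receptor core motif AGGTCA was in a window of 5 members, Abcb11, Abcc2, Abcg2, Abcb6 and Abcc10, against 16.3% of all windows, and in none of the 4 regions shown. TATAAA was found in the shared start region of Abcg5 and Abcg8 and in 13.6% of all windows. These are matches of letters and were not tested as binding sites. Members without an entry included Abca6, Abcb8, Abcc1, Abcc3, Abcc6, Abcc8, Abcd2, Abcd4, Abcg1 and Abcg4.

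Among the exporters of sterols and phospholipids, the 2 genes of HDL assembly were lower in TET1 KO at an unadjusted p under 0.05, and the 2 genes of biliary sterol secretion had fitted differences near 0. Abca1 (ENSMUSG00000015243), which hands cholesterol and phospholipid to lipid-poor apolipoprotein A1, had 95.9, 139 and 128 CPM in WT and 88.9, 86.8, 101 and 91.8 CPM in TET1 KO livers. The groups overlapped only through TET1 KO replicate 3 and WT replicate 1. On the log2 scale it differed by -0.40 (standard error, SE, of 0.15, edgeR adjusted p = 0.126, DESeq2 adjusted p = 0.0912), and over the alternatives the adjusted p ran from 0.057 to 0.406. Abcg1, which passes sterol on to mature HDL, had 5.51, 6.09 and 5.68 CPM in WT and 4.26, 5.14, 3.78 and 3.34 CPM in TET1 KO livers. No TET1 KO liver reached the lowest WT liver, with a log2 fold change of -0.49 (SE 0.19, edgeR adjusted p = 0.147). Both genes are also used by macrophages, whose 10 markers summed to 207 to 341 CPM in WT and 157 to 340 CPM in TET1 KO livers. The median log2 fold change of the 10 markers was -0.21, and edgeR and DESeq2 called 0 of them. Gpnmb alone was lower at an unadjusted p under 0.05 in edgeR. It had 3.64 CPM in WT replicate 1 and 0.282 to 0.972 CPM in the other livers. The part of macrophages in the values of Abca1 and Abcg1 was not tested.

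Abcg5 and Abcg8 encode the partners of the heterodimer that secretes cholesterol and plant sterols into bile. Abcg5 (ENSMUSG00000040505, chromosome 17 of GRCm38 from 84658174 to 84683011) had 138, 134 and 105 CPM in WT and 164, 101, 151 and 95.1 CPM in TET1 KO livers. Abcg8 had 104, 119 and 101 CPM in WT and 104, 89.5, 127 and 94.5 CPM in TET1 KO livers. For both, TET1 KO livers lay on either side of the WT range. A log2 fold change of 0.02 was fitted for Abcg5 (95% interval -0.43 to 0.48, edgeR adjusted p = 0.949). It was -0.06 for Abcg8 (95% interval -0.38 to 0.26, edgeR adjusted p = 0.816), and either sign turned under some alternatives. In CPM the ratio of Abcg5 to Abcg8 was 1.16 ± 0.147 (SD, n = 3) in WT livers. It was 1.23 ± 0.250 (SD, n = 4) in TET1 KO livers. An overlap of 82 exon bases on opposite strands means that some reads may count for either gene, as the strand setting of the counting is not given in the sources used here. Abca7, a phospholipid transporter and the tested member on chromosome 10, where Tet1 also lies at a distance of 17.1 Mb, had a log2 fold change of 0.30 (SE 0.21, edgeR adjusted p = 0.36), which was 0.52 without WT replicate 1 and 0.15 without WT replicate 3.

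At the bile canaliculus the phosphatidylcholine flippase differed more than the pumps for bile salts and bilirubin, as values without a test of the difference between genes. Abcb4 (ENSMUSG00000042476, chromosome 5 of GRCm38 from 8893614 to 8959226) had 225, 312 and 202 CPM in WT and 163, 153, 169 and 178 CPM in TET1 KO livers. All 4 TET1 KO livers lay below the lowest WT liver, with means of 246 ± 58.3 (SD, n = 3) and 166 ± 10.5 (SD, n = 4). The fitted log2 difference was -0.57 (SE 0.16, 95% interval -0.93 to -0.22), where edgeR gave an adjusted p of 0.0778 and DESeq2 one of 0.0199. Without WT replicate 2 it was -0.37 and the edgeR adjusted p was 0.303, and over the alternatives the adjusted p ran from 0.0199 to 0.303.

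Abcb11, the bile salt export pump, had 269, 372 and 362 CPM in WT and 311, 307, 334 and 321 CPM in TET1 KO livers, so that all TET1 KO livers lay inside the WT range. This came to a log2 fold change of -0.07 (95% interval -0.40 to 0.26, edgeR adjusted p = 0.787). Abcc2 had 567, 603 and 433 CPM in WT and 466, 477, 619 and 410 CPM in TET1 KO livers, and its log2 fold change was -0.12 (95% interval -0.52 to 0.29, edgeR adjusted p = 0.713), or between -0.27 without WT replicate 3 and -0.03 without WT replicate 2. The ratio of Abcb4 to Abcb11 in CPM was chosen after the values were seen. It was 0.837, 0.84 and 0.558 in WT and 0.523, 0.499, 0.504 and 0.555 in TET1 KO livers. WT replicate 3 and TET1 KO replicate 4 all but met in this ratio, although no TET1 KO liver reached a WT liver. Bile duct cells line the ducts into which the canaliculi drain, and their 7 markers summed to 41.7 to 49 CPM in WT and 68.5 to 85.2 CPM in TET1 KO livers. Of the 6 that were tested edgeR called 0, 5 were higher at an unadjusted p under 0.05, and DESeq2 called Sox9 (DESeq2 adjusted p = 0.00248), Epcam (0.0344) and Spp1 (0.0471) higher. Their median log2 fold change was 1.11, and Cftr lay at 0 to 0.232 CPM in the 7 livers. In TET1 KO replicate 4 Epcam had 4.87 CPM, against 0.689 to 0.986 CPM in the other 3 TET1 KO livers, and Krt19 had 6.68 CPM, against 1.06 to 1.69 CPM. Without that liver, in a comparison added after the values were seen, the median was 0.67. Their part in the values of the bile exporters was not tested.

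Among the drug exporters Abcb1a had the largest fitted difference of the tested members, at a low level. Abcb1a and Abcb1b are the mouse copies of the P-glycoprotein gene, and Abcb1a (ENSMUSG00000040584, chromosome 5 from 8567091 to 8748575) lies in a row with Abcb1b and Abcb4. It had 88, 147 and 42 counts in WT and 21, 29, 20 and 61 counts in TET1 KO livers, or 4.33, 6.09 and 2.32 CPM against 1.31, 2.04, 1.02 and 2.83 CPM. TET1 KO replicate 4 exceeded WT replicate 3, so the groups overlapped. On the log2 scale the difference was -1.24 (SE 0.38, 95% interval -2.08 to -0.39), where edgeR gave an adjusted p of 0.0913 and DESeq2 one of 0.0332. Without WT replicate 2 it was -0.88 (edgeR adjusted p = 0.383), and without TET1 KO replicate 4 it was -1.57 (edgeR adjusted p = 0.0453). P-glycoprotein is also made by endothelial cells, whose 6 markers summed to 143 to 145 CPM in WT and 118 to 141 CPM in TET1 KO livers, without overlap. Of these edgeR called 0, and Lyve1 was lower at an unadjusted p under 0.05 and called lower by DESeq2 (DESeq2 adjusted p = 0.014). Their part in the values of Abcb1a was not tested.

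Abcb1b had only 5 to 11 counts in WT and 7 to 19 counts in TET1 KO livers, under the minimum, with a log2 fold change of 0.61 (SE 0.46, edgeR adjusted p = 0.412). Since the 2 copies are similar in sequence, the split of reads between them is uncertain. Abcg2, which exports urate and many drugs, was more abundant per kb of exon, with 90, 100 and 88.8 CPM in WT and 88.3, 78.4, 93.4 and 60.3 CPM in TET1 KO livers. The groups overlapped, and its log2 fold change was -0.21 (95% interval -0.56 to 0.13, edgeR adjusted p = 0.394), and -0.10 without TET1 KO replicate 4.

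The organic anion exporters other than Abcc2 held the member with the smallest p, and the 6 tested ones pointed both ways. Abcc3 (ENSMUSG00000020865, chromosome 11 from 94343295 to 94393017), which sends glucuronides and bile acids back into the blood across the sinusoidal side of the hepatocyte, had 195, 258 and 127 CPM in WT livers. In TET1 KO livers it had 104, 92.2, 114 and 117 CPM, below each WT liver, though WT replicate 3 was close. The means were 193 ± 65.5 (SD, n = 3) and 107 ± 11.1 (SD, n = 4), and the log2 fold change was -0.86 (SE 0.21, 95% interval -1.31 to -0.40). From edgeR its adjusted p was 0.059, and from DESeq2 it was 0.00498. It ranked 423 of the 14754 genes in the fit by p. Without WT replicate 2 the value was -0.60 (edgeR adjusted p = 0.26), and without WT replicate 3 it was -1.11 (edgeR adjusted p = 0.0111). Leaving out TET1 KO replicate 4 gave -0.90 (edgeR adjusted p = 0.0485).

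Abcc6, whose loss causes calcification of soft tissue and which releases ATP from hepatocytes, was per kb of exon the most abundant of the 4 higher members, with 188, 142 and 134 CPM in WT and 217, 208, 263 and 182 CPM in TET1 KO livers. Only TET1 KO replicate 4 lay below a WT liver, and the log2 fold change was 0.49 (SE 0.17, edgeR adjusted p = 0.109, DESeq2 adjusted p = 0.071). In CPM each TET1 KO liver had more Abcc6 than Abcc3, at ratios of 1.57 to 2.30. The ratios were 0.55 to 1.06 in WT livers. This ratio was chosen after the values were seen and joins those of the 6 with the lowest and the highest fitted difference. Abcc1, Abcc4, Abcc5 and Abcc10 had log2 fold changes between -0.51 and 0.44, with edgeR adjusted p of 0.262 or more. When WT replicate 2 was left out, Abcc10 went from 0.44 to 0.27, Abcc5 from 0.25 to 0.05 and Abcc1 from 0.22 to 0.08 on the log2 scale, and Abcc5 was at 0.07 without TET1 KO replicate 1. Without WT replicate 1, Abcc5 and Abcc1 were at 0.43 and 0.41. Of these Abcc4, which carries cyclic nucleotides and bile acids and is known for its rise in cholestasis, had 0.649 to 1.53 CPM in all livers.

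**Figure D3:**
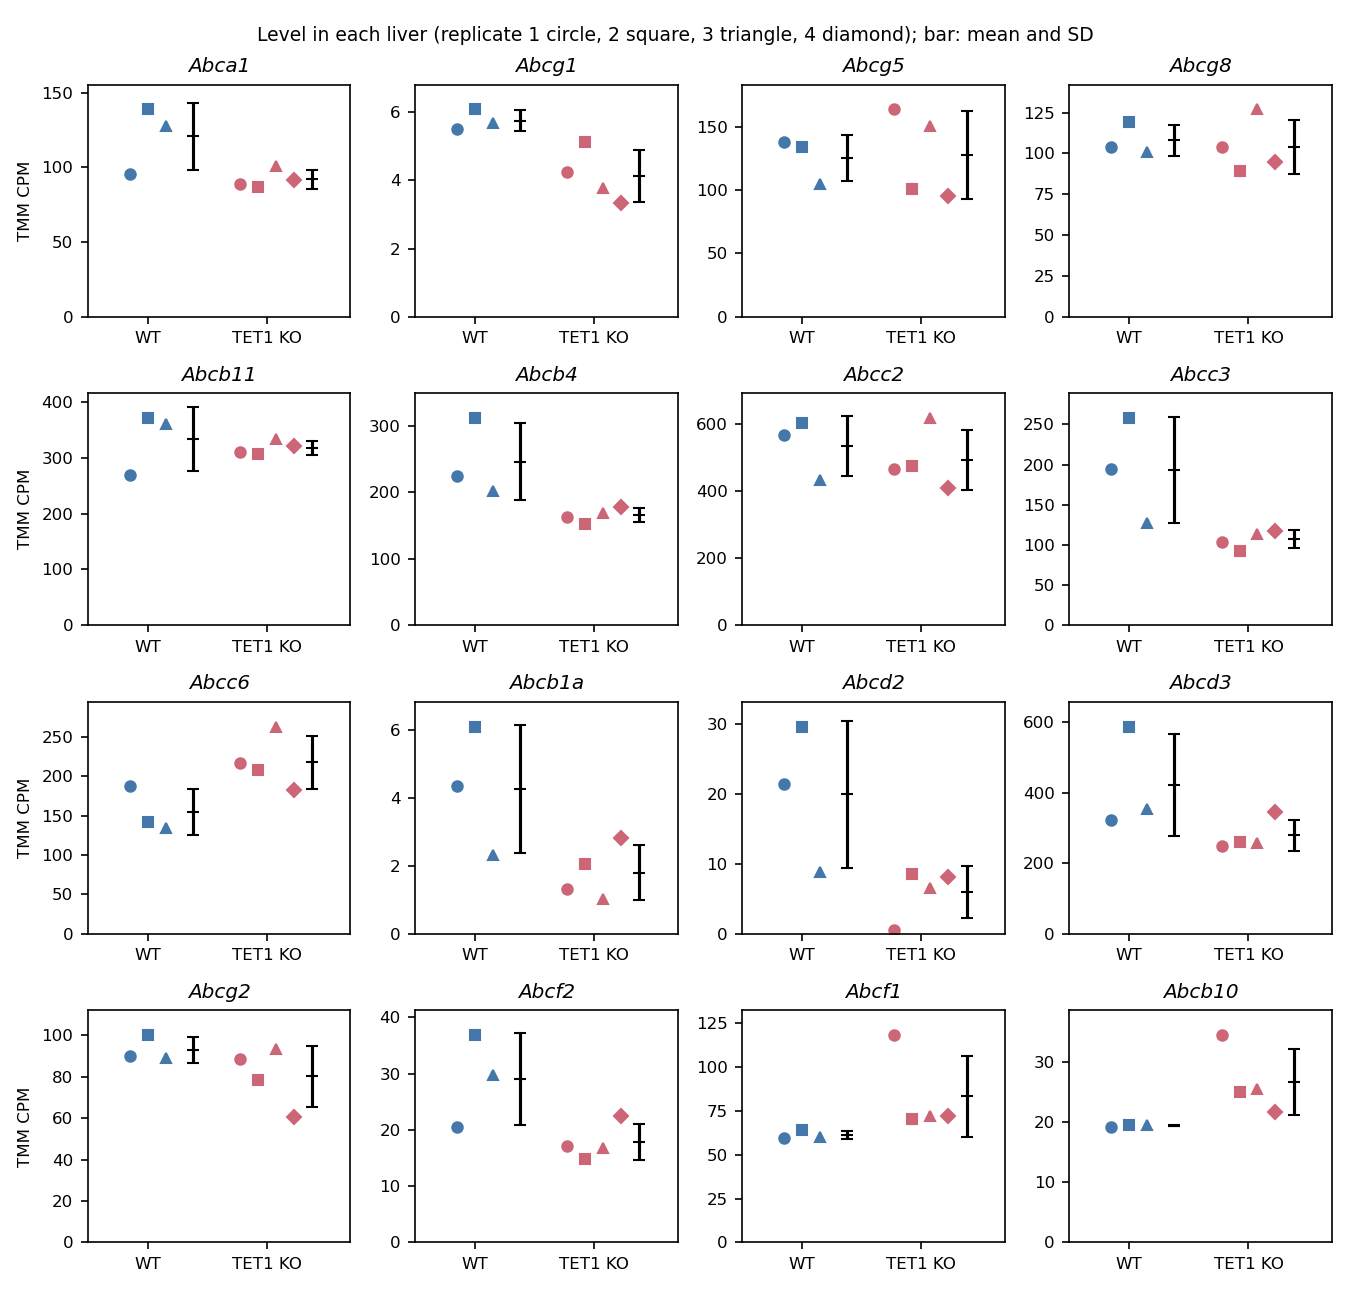
TMM CPM (y axis, from 0) of 16 members in each WT (blue) and TET1 KO (red) liver, with the mean and SD of the group as a black bar. TET1 KO livers lie below all WT livers for Abcg1, Abcb4, Abcc3 and Abcd2 and above them for Abcf1 and Abcb10, and WT replicate 2 (blue square) is the highest liver in many panels.

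In the peroxisomal D subfamily, Abcd3 and Abcd2 had lower means in TET1 KO, and neither was called by edgeR or DESeq2 at an adjusted p under 0.05. Abcd3, whose product takes branched and dicarboxylic fatty acids and bile acid precursors into the peroxisome, had 322, 588 and 355 CPM in WT and 250, 261, 259 and 346 CPM in TET1 KO livers. WT replicate 2 stood well above the other livers, and TET1 KO replicate 4 lay between the other 2 WT livers. A log2 fold change of -0.60 was fitted (SE 0.22, edgeR adjusted p = 0.122, DESeq2 adjusted p = 0.0628), and without WT replicate 2 it was -0.28 (edgeR adjusted p = 0.472).

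Abcd2, a carrier of very long chain fatty acids, lay just outside the count minimum and is given by its values. It had 435, 714 and 159 counts in WT and 8, 121, 127 and 176 counts in TET1 KO livers, so that 1 liver alone kept it out. In CPM these were 21.4, 29.6 and 8.77 against 0.501, 8.52, 6.5 and 8.16. No TET1 KO liver reached a WT liver, although WT replicate 3 was nearly level with TET1 KO replicate 2, and TET1 KO replicate 1 was far below all others. The log2 fold change of -1.75 (SE 0.60, 95% interval -3.08 to -0.42) came with an edgeR adjusted p of 0.111 and a DESeq2 one of 0.201. Without WT replicate 2 it was -1.35 (edgeR adjusted p = 0.403), and without TET1 KO replicate 1 it was -1.37 (edgeR adjusted p = 0.0883).

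Among the mitochondrial members, Abcb10, which acts in heme synthesis, had 19.3, 19.6 and 19.5 CPM in WT and 34.5, 25, 25.6 and 21.8 CPM in TET1 KO livers. All TET1 KO livers lay above the narrow WT range, and the log2 fold change was 0.45 (SE 0.16, edgeR adjusted p = 0.121). Abcb6 and Abcb8 had log2 fold changes of 0.03 (95% interval -0.25 to 0.32) and 0.07 (95% interval -0.24 to 0.37), and their groups overlapped.

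Of the 5 tested members of lysosomes and endosomes, 2 were lower and 1 was higher at an unadjusted p under 0.05, where 12.7% and 14.1% of all genes were. Abca5 had 4.04, 5.93 and 5.08 CPM in WT and 3.82, 1.97, 3.12 and 2.88 CPM in TET1 KO livers, all below WT. This came to a log2 fold change of -0.76 (SE 0.24, edgeR adjusted p = 0.0958, DESeq2 adjusted p = 0.0553). Abca3, known for loading surfactant lipid into lamellar bodies of the lung, had a log2 fold change of -0.50 (SE 0.19, edgeR adjusted p = 0.129), and of -0.27 without WT replicate 2. Abcd4, which brings cobalamin out of the lysosome, had 12.3, 10.3 and 13.9 CPM in WT and 28.9, 11.6, 17.7 and 17.2 CPM in TET1 KO livers. TET1 KO replicate 1 stood high and the groups overlapped, with a log2 fold change of 0.63 (SE 0.26, edgeR adjusted p = 0.162) that became 0.35 without that liver. Abca2 and Abcb9 had log2 fold changes of 0.15 and 0.21 with overlapping groups, and of 0.01 and -0.03 without TET1 KO replicate 1.

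Abca5 also closes a row of A subfamily genes on chromosome 11, where Abca8b, Abca8a, Abca9 and Abca6 precede it. Abca8b had 56.3, 60.8 and 56.0 CPM in WT and 41.2, 51.5, 44.3 and 43.9 CPM in TET1 KO livers, again with no overlap. On the log2 scale the difference was -0.35 (SE 0.12, edgeR adjusted p = 0.114). Its close paralog Abca8a had a log2 fold change of 0.18 (95% interval -0.28 to 0.63, edgeR adjusted p = 0.608), which was 0.47 without WT replicate 2 (edgeR adjusted p = 0.303), and reads that fit both copies could be split between them in either way. Abca6 had 44.5, 92.1 and 46.4 CPM in WT and 37.1, 38.2, 49.6 and 47.0 CPM in TET1 KO livers. The fitted log2 difference of -0.51 (SE 0.24, edgeR adjusted p = 0.205) became -0.09 without WT replicate 2, so that it rested on that liver. Abca9 had a log2 fold change of -0.44 (SE 0.30, edgeR adjusted p = 0.36) at 1.69 to 4.56 CPM, of -0.16 without WT replicate 2 (edgeR adjusted p = 0.837) and of -0.69 without WT replicate 1.

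The soluble members, which transport nothing, spanned both directions too. Abcf2 (ENSMUSG00000028953, chromosome 5 from 24565341 to 24577467) had 20.5, 36.8 and 29.8 CPM in WT and 17.2, 14.9, 16.7 and 22.4 CPM in TET1 KO livers. TET1 KO replicate 4 reached above WT replicate 1, and the other 3 TET1 KO livers lay below every WT liver. A log2 fold change of -0.71 was fitted (SE 0.20, 95% interval -1.16 to -0.25), where edgeR gave an adjusted p of 0.0809 and DESeq2 one of 0.0283. Without WT replicate 2 it was -0.50 (edgeR adjusted p = 0.34), and without WT replicate 1 it was -0.92 (edgeR adjusted p = 0.0477). Leaving out TET1 KO replicate 4 gave -0.84 (edgeR adjusted p = 0.045).

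Abcf1, a factor of translation initiation, had 59.7, 64.0 and 60.3 CPM in WT and 118, 70.5, 72.0 and 72.2 CPM in TET1 KO livers. All TET1 KO livers were above WT, but TET1 KO replicate 1 stood far above the other 3. The fitted log2 difference was 0.44 (SE 0.19, edgeR adjusted p = 0.168), and it was 0.22 without that liver. Abce1, which splits ribosomes after termination, and Abcf3 had log2 fold changes of -0.23 and -0.08 with overlapping groups. These were -0.37 and -0.20 without WT replicate 1, and Abcf3 was at -0.00 without WT replicate 2. Abcc9, the sulfonylurea receptor of mural cells and the tested channel regulator, had a log2 fold change of -0.05 (95% interval -0.46 to 0.35), beside 8 stellate cell and pericyte markers that summed to 223 to 330 CPM in WT and 211 to 291 CPM in TET1 KO livers. Of these edgeR called Rgs5 lower (edgeR adjusted p = 0.046), a call that was lost in 6 of the 7 fits without 1 mouse (edgeR adjusted p of 0.0441 to 0.206 over the 7), DESeq2 called Rgs5 and Col1a1 lower, and their part in the value of Abcc9 was not tested. Abcg3, a G member of rodents, had a log2 fold change of 0.13 (95% interval -0.36 to 0.63).

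**Figure D4:**
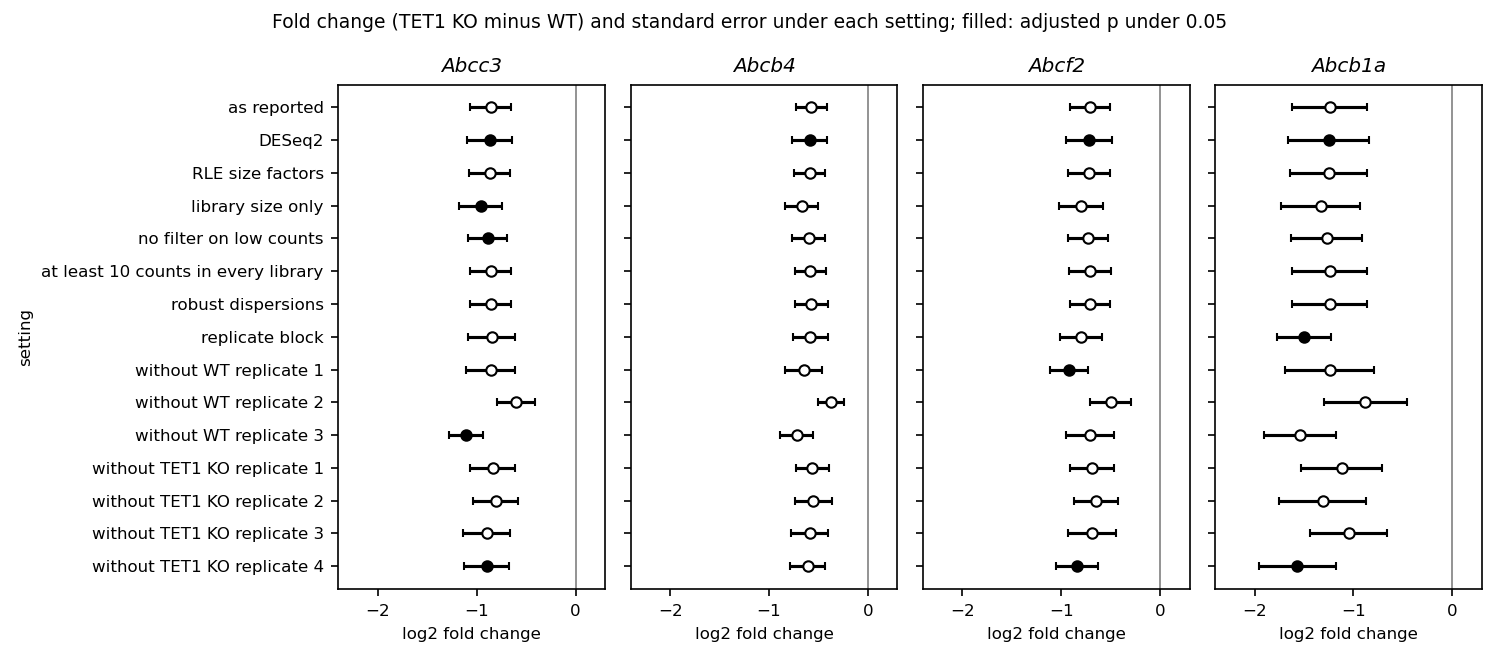
Log2 fold change (x axis, TET1 KO minus WT, with its SE) of Abcc3, Abcb4, Abcf2 and Abcb1a under the reported fit and 14 alternatives, filled where the adjusted p was under 0.05. The 4 genes stay below 0 in every setting, lie nearest to 0 without WT replicate 2, and are filled together only with DESeq2.

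Of 31 other genes of ABC transport, comprising 9 receptors and factors that control it, 6 carriers, 7 sterol transport partners, 3 peroxisome factors and 6 ABC proteins or their partners under other symbols (Tap1, Tap2, Tapbp, Cftr, Kcnj8 and Kcnj11), 28 were tested, and edgeR called 1 higher and 0 lower in TET1 KO, where 1.92% of all genes were called in either direction. At an unadjusted p under 0.05 the numbers were 4 higher and 4 lower, against 14.1% and 12.7% of all genes, and the median log2 fold change of the list was -0.06. The called gene was Slco1a1, an uptake carrier for bile acids and other organic anions, with 45.1, 64.4 and 72.0 CPM in WT and 272, 194, 202 and 140 CPM in TET1 KO livers. The lowest TET1 KO liver was far above the highest WT liver, with a log2 fold change of 1.74 (SE 0.23, edgeR adjusted p = 0.00736), and of 1.56 to 1.88 when single mice were left out (edgeR adjusted p of 0.00356 to 0.0501, the last without WT replicate 2). DESeq2 called 4 of the list higher, namely Slco1a1, Nr1i3, Apoa1 and Npc1, and 1 lower, the peroxisome factor Pex19, against 4.9% of all genes in each direction.

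Of the receptors and factors that control the exporters, edgeR called 0 and DESeq2 called Nr1i3, and at an unadjusted p under 0.05 in edgeR Nr1i3 was higher and Nfe2l2 lower. Nr1h3, the oxysterol receptor LXR alpha that controls Abca1, Abcg1, Abcg5 and Abcg8, had 80.3, 80.0 and 89.0 CPM in WT and 99.1, 96.3, 97.7 and 102 CPM in TET1 KO livers. These did not overlap, and the log2 fold change was 0.25 (95% interval -0.00 to 0.50, edgeR adjusted p = 0.192). Nr1h4, the bile acid receptor FXR that controls Abcb11 and Abcb4, had a log2 fold change of -0.04 (95% interval -0.30 to 0.23, edgeR adjusted p = 0.861). Nr1i3, the xenobiotic receptor CAR, had 519, 423 and 323 CPM in WT and 736, 584, 616 and 553 CPM in TET1 KO livers, where edgeR gave an adjusted p of 0.105 and DESeq2 one of 0.0449. Apoa1, the acceptor of the lipid that Abca1 exports, had 6220, 4284 and 5382 CPM in WT and 14219, 11378, 10185 and 9590 CPM in TET1 KO livers. This came to a log2 fold change of 1.10 (SE 0.32), where edgeR gave an adjusted p of 0.0818 and DESeq2 one of 2.34e-06. Pex19, which delivers proteins such as Abcd3 to the peroxisome membrane, had 86.8, 115 and 86.5 CPM in WT and 63.1, 69.9, 69.8 and 75.1 CPM in TET1 KO livers, all below WT, where edgeR gave an adjusted p of 0.0839 and DESeq2 one of 0.0372. Slc10a1, the uptake carrier for bile salts, had a log2 fold change of -0.13 (95% interval -0.53 to 0.27, edgeR adjusted p = 0.678).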

How the data were processed

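Liver RNA of 3 WT and 4 TET1 KO mice was analysed, with groups and replicate numbers from the sample labels. For each mouse the authors deposited raw counts of reads per gene, without normalization. Per the submitters' processing notes, the tools were Trimmomatic 0.36, GSNAP and featureCounts 1.5.3, and the build was GRCm38. The strand setting of the counting and the annotation release are not given in the sources used here. The library protocol names poly(A) selection or rRNA removal without saying which was used.

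Tables were joined by Ensembl identifier, and 5 repeated entries were left out of each. Counts were tested in R 4.3.3 with edgeR 4.0.16 (filterByExpr, TMM, quasi-likelihood test, genotype as the only term, common biological coefficient of variation 0.208). P-values were adjusted by Benjamini-Hochberg over all 14754 genes kept, and a gene was called at an adjusted p under 0.05. The SE is the size of the fold change over the square root of F. DESeq2 1.42.0, RLE size factors, library size only, no filter, a minimum of 10 counts in each library, robust dispersions, a replicate block, a threshold of 0.1 and leaving out each mouse were the alternatives. P-values measure the spread between these mice. The scripts were tested on simulated data. Per-length levels divide TMM CPM by exon length from GENCODE M1, matched by identifier, and coordinates and sequences are from RefSeq GRCm38.p6. No pair of libraries of 1 genotype agreed within sampling noise (lowest chi-square per degree of freedom 25). At 14.2 counts or more per CPM, members below 1 CPM rest on few counts, and such values carry counting error beside the spread between mice. Named in full were the members that edgeR or DESeq2 called, those whose groups did not overlap, the members best known from the liver, and of the 31 other genes the called ones and those that control or serve a described member. The members and lists were chosen with earlier results of these data known. Python 3.11 and matplotlib 3.10.9 drew the figures. Of the tested members, 2 are not reported here singly, and they stay in the counts over all members.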

Additional observations from a re-analysis of the deposited data

Results flagged for a closer look

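In the TET1 KO group, the only group large enough for this check, 1 liver lay far from the other 3 for 2 of the 39 genes examined, where chance gives about 1.95 at 1 in 20. For Abcd3, TET1 KO replicate 4 had 346 CPM against 250 to 261 CPM, and its gap to the nearest liver was 0.883 of the group's range. For Abcf1, TET1 KO replicate 1 had 118 CPM against 70.5 to 72.2 CPM, a gap of 0.964 of the range. Both gaps passed Dixon's 95% limit.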

How the results depend on the processing

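No member was called higher under any of the 15 alternatives. The number called lower was 0 in the reported fit and with RLE size factors, the stricter count minimum and robust dispersions, but 4 with DESeq2, 1 with library size only (Abcc3, with 419 calls over all genes against 298 as reported), 1 with no filter on low counts (Abcc3, 592 calls) and 5 at an adjusted p under 0.1. It ran from 0 to 3 when single mice were left out: 3 without TET1 KO replicate 4 (Abcb1a, Abcc3 and Abcf2, with 891 calls over all genes), 1 without WT replicate 1 (Abcf2, 283 calls) and 1 without WT replicate 3 (Abcc3, 224 calls). Leaving out WT replicate 2 gave 38 calls and 0 members. The deviations of mice with the same replicate number correlated at 0.209, -0.123 and -0.0964. Mice with different numbers were not compared in this way, so these values cannot show whether the numbers pair the mice. With the replicate block 1 member was called lower (Abcb1a), and calls over all genes went from 298 to 1326, against 1400 with DESeq2. Of 542 fold changes of single members under the alternatives, 511 kept their direction and their side of the threshold, 12 passed it in the same direction (4 genes) and 19 turned their sign (9 genes). Library size only gave -0.06 for Abcb6, -0.03 for Abcb8 and -0.08 for Abcg5, no filter gave -0.01 for Abcg5, and the replicate block gave -0.00 for Abcb6 and 0.03 for Abcc9. Leaving out single mice gave -0.18 to 0.01 for Abcg8, -0.06 to 0.10 for Abcb6, -0.22 to 0.01 for Abcb11, -0.03 to 0.14 for Abcb8, -0.02 to 0.26 for Abcg3, -0.03 to 0.33 for Abcb9, -0.20 to 0.04 for Abcc9, -0.12 to 0.14 for Abcg5 and -0.01 to 0.47 for Abca8a. The cause was not tested. With 3 and 4 mice, intervals of members near 0 on the log2 scale remain wide, and Abcb1a and Abcb1b have few counts.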
